A study of Mus musculus with 32 samples.

Results

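The genes described here are Hif1a, which encodes the oxygen-regulated subunit of the transcription factor HIF-1, and 9 genes known as HIF-1 or hypoxia targets outside glycolysis: Egln1, Egln3, Bnip3, Bnip3l, P4ha1, Pdk1, Vegfa, Ndrg1 and Ankrd37. They were matched by the gene symbol of each array's annotation, and they are 10 of the 23339 genes measured on either array type. On the arrays of the 48 h cultures 8 of the 10 were measured by a probe set of their own. There Bnip3l and Ankrd37 share their probe set with another gene and have no value. On the arrays of the 72 h cultures 9 of the 10 were measured, and P4ha1 is not analysed here. They were chosen by name, without a threshold, but with the differences between the groups of these same arrays in view. Their differences therefore describe these arrays. The adjusted p-values show how large each difference is against the spread between arrays and are not independent tests, and nothing is supported with the number of members called.

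CD4+ T cells came from axial and cervical lymph nodes of Balb/c mice carrying the DO11.10 T cell receptor transgene, which recognises a peptide of ovalbumin (OVA). All cells in every group were cultured with peritoneal macrophages elicited with thioglycollate, which served as the antigen-presenting cells, in RPMI prepared from amino acid-free RPMI-SILAC. CD4+ viable single cells were sorted and RNA was measured on 23 arrays after 48 h and on 9 arrays of another type after 72 h, from 100 ng of RNA each. At 48 h the T cells received OVA in full medium (3 arrays), OVA with macrophages pretreated with IL-4 and IL-10 at 10 ng/mL each and then washed (3 arrays), or OVA while arginine, leucine or lysine stood at 1% of its normal level (3 arrays each). The same low media without OVA were measured on 2 arrays for arginine and 3 each for leucine and lysine, and no culture in full medium without OVA was measured at 48 h. At 72 h the groups were no OVA, OVA, and OVA with macrophages pretreated with IL-4 and IL-10, with 3 arrays each. The pretreatment is described by the labels as a means to induce arginase-1, an enzyme that breaks down arginine. Ages are not given in the labels. Nothing says whether replicates came from separate cultures or animals, so p-values take in only the spread between samples, which may be technical.

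HIF-1 is a dimer of HIF-1 alpha and ARNT. In oxygenated cells the prolyl hydroxylases, among them the products of Egln1 and Egln3, mark HIF-1 alpha for recognition by the VHL ubiquitin ligase and destruction; both genes are themselves HIF targets, so they form a feedback loop. In T cells, receptor signalling raises Hif1a transcripts and HIF-1 alpha protein at normal oxygen, in part through mTOR, the kinase that also senses amino acids. HIF-1 binds DNA at a short core sequence, ACGTG or GCGTG, within hypoxia response elements. Transcript levels, the only quantity measured here, do not report the amount of HIF-1 alpha protein.

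The stretch of 250 bases before the transcription start, from RefSeq on GRCm38.p6, was available for 8 of the 10 genes in 10 windows. Those printed are of 4 genes that were lower in low arginine and low lysine medium than in full medium, so that the core sequence can be seen in its setting; each is written on the strand of the gene, 5′ to 3′, with every ACGTG or GCGTG and its complement on the other strand, CACGT or CACGC, in capitals.
Egln3 (chr12:54203875-54204124, minus strand): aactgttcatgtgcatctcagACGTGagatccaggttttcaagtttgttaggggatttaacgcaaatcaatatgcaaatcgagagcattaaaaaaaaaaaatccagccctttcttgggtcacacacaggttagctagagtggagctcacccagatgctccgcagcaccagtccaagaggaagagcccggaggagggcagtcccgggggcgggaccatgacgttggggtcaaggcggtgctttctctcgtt
Bnip3 (chr7:138909507-138909756, minus strand): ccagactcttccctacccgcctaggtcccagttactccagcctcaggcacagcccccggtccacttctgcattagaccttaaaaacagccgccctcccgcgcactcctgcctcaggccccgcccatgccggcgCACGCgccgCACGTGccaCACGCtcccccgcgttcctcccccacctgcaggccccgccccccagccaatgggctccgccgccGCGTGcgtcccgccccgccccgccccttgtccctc
Pdk1, first of its 2 windows (chr2:71872974-71873223, plus strand): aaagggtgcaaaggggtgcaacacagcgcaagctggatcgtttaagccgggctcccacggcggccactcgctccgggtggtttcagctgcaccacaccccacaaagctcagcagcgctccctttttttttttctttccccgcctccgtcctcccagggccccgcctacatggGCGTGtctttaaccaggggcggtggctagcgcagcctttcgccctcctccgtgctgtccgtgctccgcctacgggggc
P4ha1 (chr10:59323046-59323295, plus strand): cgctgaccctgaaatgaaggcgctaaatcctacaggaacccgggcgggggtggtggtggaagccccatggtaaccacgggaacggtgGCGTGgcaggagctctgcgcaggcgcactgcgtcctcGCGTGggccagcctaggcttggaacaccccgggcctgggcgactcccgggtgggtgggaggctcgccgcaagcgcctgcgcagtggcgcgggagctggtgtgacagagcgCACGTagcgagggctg
The Bnip3 stretch holds 5 matches on either strand, the P4ha1 stretch 3, and those of Egln3 and Pdk1 hold 1 each. Of the windows not printed, that of Ankrd37 holds 4, that of Hif1a 3 and that of Egln1 2. The second Pdk1 window holds 0, and the 2 of Vegfa hold 0 and 2. A match read on both strands, as in the palindrome CACGTG, was counted once for each strand. Of the 10 windows, 8 hold at least 1 match, against 38.6% of all 32851 mouse promoter windows of that length. The median GC content was 65.2% in the members' windows and 52.4% in all windows. A match is a description of the letters and not a binding site, and binding was not measured.

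Cell identity was read from marker genes chosen with earlier results of these arrays known. Cd3e, a subunit of the T cell receptor complex, ranged from 11.22 to 11.95 at 48 h, and at 72 h from 8.56 to 9.91, on the log2 scale of the deposited values. Cd4, the coreceptor used for the sort, ranged from 9.41 to 10.23 at 48 h, and at 72 h from 6.81 to 9.22. Csf1r, a receptor of macrophages, ranged from 5.28 to 6.26 at 48 h, and at 72 h from 3.58 to 5.07. At 48 h another macrophage gene, the lysozyme gene Lyz2, was high on every array. It ranged from 9.08 to 11.47, and its mean lay above that of 99.1% of genes. The endotoxin receptor gene Cd14 ranged from 4.45 to 5.88 at 48 h. On the 72 h arrays Lyz2 ran from 2.95 to 11.11 and Cd14 from 3.63 to 10.5. The mean of 23 macrophage markers was 6.45 to 6.54 with OVA in full medium at 48 h, 6.74 to 7.22 after pretreatment, 6.09 to 6.52 in low media with OVA and 6.85 to 7.24 without OVA. The mean of 18 mesothelial and stromal markers at 48 h was 5.24 to 5.33 with OVA in full medium and 5.23 to 5.59 after pretreatment. It was 5.04 to 5.33 in low media with OVA and 5.42 to 6.1 without OVA. At 72 h the mean of these 18 markers was 9.14 to 9.31 without OVA, 3.78 to 4.12 with OVA and 4.21 to 5.69 after pretreatment. The macrophage mean at 72 h was 5.07 to 7.18 without OVA, 3.96 to 4.02 with OVA and 4.25 to 4.40 after pretreatment. In sorted bulk cells, fewer cells of a type and less RNA per cell cannot be told apart.

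Hif1a at 48 h was higher on every array with OVA than on any array without it. With OVA in full medium its 3 arrays read 10.64, 10.74 and 10.90. In the low media with OVA it read 10.71, 10.93 and 10.90 for arginine, 10.81, 10.95 and 11.02 for leucine, and 10.70, 10.85 and 10.88 for lysine. After pretreatment with IL-4 and IL-10 it read 10.81, 10.76 and 10.91. The 5 groups with OVA overlap one another, and their means lie between 10.76 and 10.93. Without OVA the arrays read 8.21 and 8.29 in low arginine, 8.81, 8.70 and 8.53 in low leucine, and 8.18, 8.48 and 8.56 in low lysine. Among these, low arginine lies below all low-leucine arrays.

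Egln3, the hydroxylase whose transcript is strongly hypoxia-inducible, had the widest range of the 8 genes at 48 h and a graded order. OVA in full medium gave 9.97, 10.26 and 10.29, and pretreatment gave 9.04, 8.98 and 10.05. Low leucine with OVA gave 9.03, 8.07 and 9.01, and low lysine with OVA gave 7.29, 8.03 and 9.09. Low arginine with OVA gave 5.96, 6.0 and 6.26, all below the lowest value of any other OVA group. The arrays without OVA lay lower still, between 5.26 and 5.91. These values and those of low arginine with OVA lie near the median gene level of the 48 h arrays, 5.71. Whether a floor of the arrays limits differences at this level was not tested. Neighbours in the order of means overlap from full medium through pretreatment and leucine to lysine, and the step from lysine (mean 8.14) to arginine (mean 6.08) does not.

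Bnip3, a mitochondrial protein of the BCL2 family that promotes mitophagy, gave 8.03, 7.98 and 7.95 with OVA in full medium and 8.26, 8.06 and 8.70 after pretreatment. In low leucine with OVA it gave 7.41, 6.68 and 7.68, in low lysine 6.08, 6.11 and 7.15, and in low arginine 6.0, 6.06 and 6.27. The median gene level of the 48 h arrays was 5.71. Low arginine and the first and second low-lysine arrays lie within the range of the arrays without OVA, 5.88 to 6.50. The third low-lysine array stands above them, and it is also the highest of its group for Egln1, Egln3, P4ha1, Pdk1 and Ndrg1.

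Pdk1, the kinase that turns off pyruvate dehydrogenase and so limits entry of pyruvate into mitochondrial oxidation, gave 7.84, 7.76 and 7.93 with OVA in full medium. Pretreatment gave 6.99, 7.47 and 7.87. All arrays in low media, with or without OVA, lay between 6.61 and 7.20. The full-medium arrays therefore lie above every low-medium array, and within the low media the groups with and without OVA overlap.

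Vegfa, which encodes the angiogenic growth factor VEGF-A, was highest after pretreatment and lowest in full medium among the OVA groups. Pretreatment gave 9.45, 9.28 and 9.44, low arginine 8.73, 8.48 and 9.02, low lysine 8.49, 8.59 and 8.55, low leucine 8.57, 8.32 and 8.62, and full medium 8.27, 8.33 and 8.37. Full medium with OVA was thus the lowest of the OVA groups, and it overlaps only low leucine. Without OVA the arrays lay between 6.28 and 7.30.

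Egln1, the main prolyl hydroxylase at normal oxygen, ranged from 9.32 to 9.43 with OVA in full medium, 9.28 to 9.66 after pretreatment, 8.87 to 9.30 in low leucine, 8.74 to 8.85 in low arginine and 8.41 to 9.04 in low lysine. Without OVA it ranged from 7.59 to 8.29. P4ha1, the catalytic subunit of the prolyl 4-hydroxylase that matures collagen, ranged from 8.41 to 8.61 in full medium with OVA, 8.30 to 8.85 after pretreatment, 8.24 to 8.36 in low leucine, 7.85 to 8.32 in low lysine and 7.78 to 7.99 in low arginine. Its values without OVA ran from 6.91 to 7.65. Ndrg1, a stress-responsive cytoplasmic protein, ranged from 9.68 to 10.14 after pretreatment, 9.06 to 9.48 in full medium, 8.97 to 9.42 in low leucine, 8.31 to 8.53 in low arginine and 8.01 to 8.82 in low lysine. Without OVA, Ndrg1 ranged from 6.92 to 8.05. Egln1 and P4ha1 in every OVA group, and Ndrg1 in all but low lysine (lowest array 8.01), lie above every array without OVA.

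**Figure D1:**
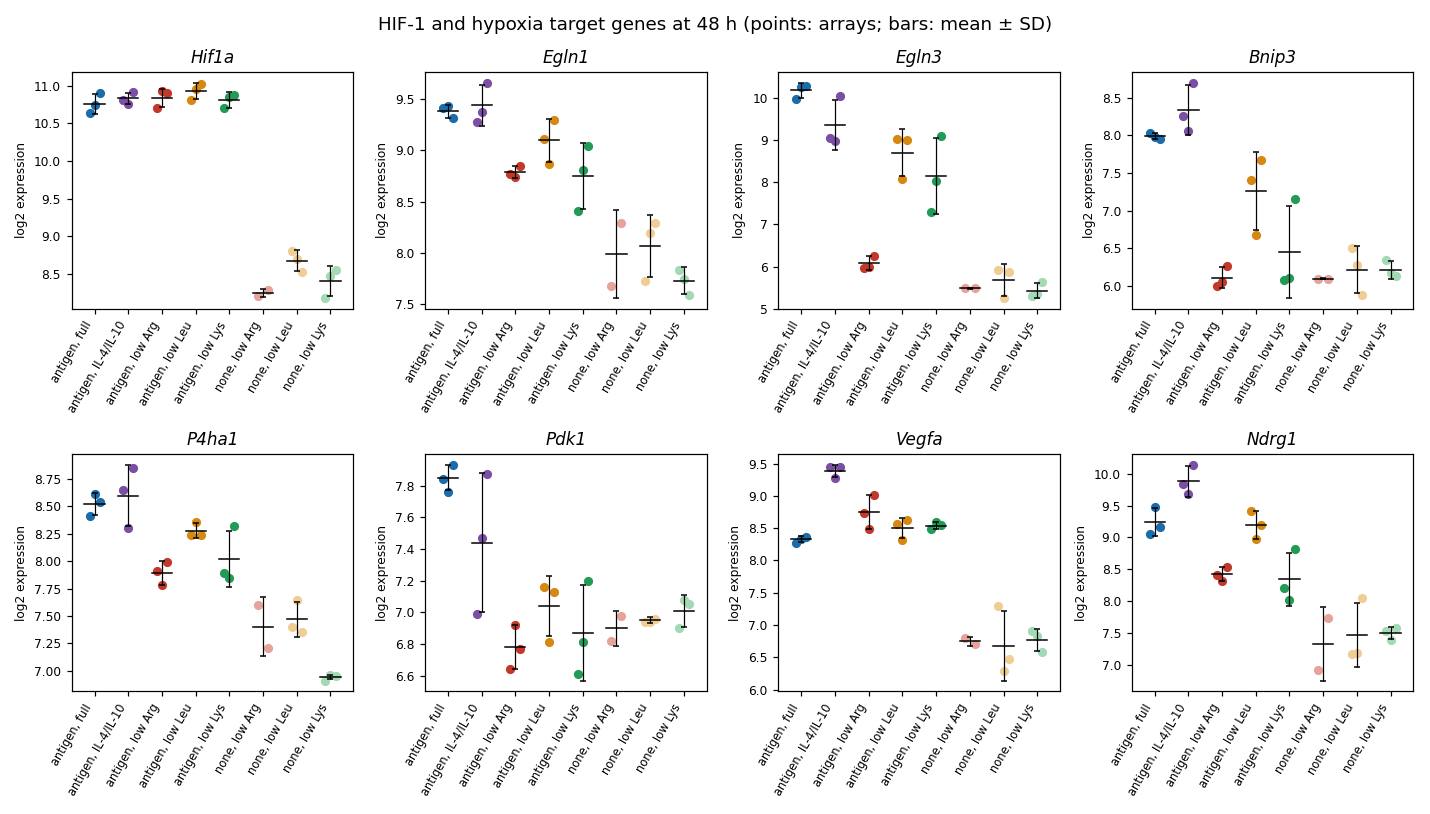
Log2 expression (y axis) of the 8 genes measured at 48 h in each of 8 groups (x axis), with 1 point per array, the group mean as a horizontal line and the SD as the bar; y axes differ between panels. Hif1a splits into arrays with and without OVA, while Egln3 in low arginine with OVA (5.96 to 6.26) lies far below full medium (9.97 to 10.29).

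The effect of antigen within each low medium was tested with limma's moderated test over all 22180 genes of the 48 h arrays, with p-values adjusted by the Benjamini-Hochberg method and a gene called at an adjusted p below 0.05. Hif1a rose with OVA by 2.59 ± 0.13 (log2 difference ± SE, here and below) in low arginine (adjusted p = 7.66e-13), by 2.24 ± 0.11 in low leucine (adjusted p = 7.9e-13) and by 2.40 ± 0.11 in low lysine (adjusted p = 2.13e-13). These are 6.04-, 4.74- and 5.29-fold. Vegfa rose by 1.99 ± 0.21, 1.82 ± 0.18 and 1.77 ± 0.18 in the same order. In low arginine 5 of the 8 genes were called, all higher, where 29.4% of all genes were called (17.2% higher, 12.2% lower). In low leucine 7 of 8 were called higher, against 41.3% of all genes called (21.8% higher, 19.5% lower). In low lysine 6 of 8 were called higher, against 31% of all genes called (18.4% higher, 12.6% lower). Of the called genes 58.5%, 52.7% and 59.4% were higher as deposited, and 83.0%, 75.9% and 79.0% with the arrays centred on their medians; quantile normalization gave 49.1% in low lysine. As the genes were chosen with results known, nothing is read from these shares.

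Egln3 differed most between the media in its response to OVA. In low leucine it rose by 3.02 ± 0.33 (8.13-fold, adjusted p = 1.61e-07) and in low lysine by 2.70 ± 0.33 (6.51-fold, adjusted p = 1.02e-06). In low arginine its difference was 0.58 ± 0.37 (95% interval -0.19 to 1.35, adjusted p = 0.247), although the 3 arrays with OVA all lay above the 2 without. With only these groups in the fit it was called higher (0.58 ± 0.15, adjusted p = 0.0152). Bnip3 rose in low leucine by 1.04 ± 0.25 (adjusted p = 0.00194), and its difference was 0.02 ± 0.28 in low arginine and 0.23 ± 0.25 in low lysine, with adjusted p = 0.973 and 0.519. Ndrg1 and Egln1 rose in each low medium, by 0.85 to 1.73 and by 0.80 to 1.02. P4ha1 rose by 0.49 ± 0.17 in low arginine, 0.81 ± 0.15 in low leucine and 1.08 ± 0.15 in low lysine. For Pdk1 the differences were -0.12, 0.09 and -0.14, none of them called; its other probe set gave 0.23, 0.75 and 0.64. In low arginine, where the group without OVA has 2 arrays, leaving out its first array left Hif1a, Vegfa and P4ha1 called, and leaving out its second ended the call of P4ha1 (0.30, adjusted p = 0.328). That call also ended without the first or the third low-arginine array with OVA (adjusted p = 0.0647 and 0.0928), and the call of Ndrg1 in low lysine ended without the third low-lysine array with OVA (0.61, adjusted p = 0.0721). Under quantile normalization of the arrays, Hif1a and Vegfa were the members still called in low arginine, and P4ha1 (0.28) was not called in low leucine. In low lysine that setting did not call Ndrg1 (0.40) and called Pdk1 lower (-0.44, adjusted p = 0.0345). The macrophage markers moved with these comparisons: 10, 16 and 14 of 23 were called lower with OVA in low arginine, leucine and lysine. Of 18 mesothelial and stromal markers 6, 10 and 2 were called lower in the same order, against 12.2%, 19.5% and 12.6% of all genes. Of 12 T cell markers, 7, 5 and 5 were called higher in the same order, and 1 was called lower in each medium. The part of these markers in the result was not tested.

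The difference between the 3 antigen effects was tested in the same model with a moderated F-test. None of the 8 genes was called (33 of 22180 genes were, 0.149%), and 4 of the 8 had an unadjusted p below 0.05. Egln3 came nearest, with adjusted p = 0.0608; the antigen effect in low arginine minus that in low leucine was -2.44 ± 0.50, arginine minus lysine was -2.12 ± 0.50, and lysine minus leucine was -0.32 ± 0.47. With quantile normalization the adjusted p was 0.0483, and with only genes above the median level it was 0.0325. With replicate number as a block it was 0.0126, though the numbers were not shown to pair these arrays. Leaving out the second low-leucine array with OVA gave 0.0409, and leaving out the first or the third low-lysine array with OVA gave 0.0235 and 0.00875. Larger values came with the arrays centred on their medians (0.107) and without any 1 low-arginine array with OVA (0.111 to 0.145). Leaving out the first or the second low-arginine array without OVA left 1 array in that group. Arginine minus leucine was then -2.44 and -2.45. The adjusted p for Bnip3 was 0.451, for Ndrg1 0.51 and for P4ha1 0.553.

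Against full medium, with OVA in both groups, Egln3, Bnip3 and Pdk1 fell most in low arginine. Egln3 was 17.2-fold lower (log2 difference -4.10 ± 0.33, 95% interval -4.79 to -3.41, adjusted p = 4.07e-08). Its low-arginine values lie near the median gene level of 5.71, and whether a floor limits this fold was not tested. Bnip3 was 3.68-fold lower (-1.88 ± 0.25, adjusted p = 5.27e-05) and Pdk1 2.10-fold lower (-1.07 ± 0.18, adjusted p = 0.000601). P4ha1 fell by 0.63 ± 0.15 (adjusted p = 0.0142) and Ndrg1 fell by 0.82 ± 0.23 (adjusted p = 0.042). Egln1 was lower in all 3 arrays but missed the threshold (-0.60 ± 0.17, adjusted p = 0.0512); with only these groups in the fit it was called (adjusted p = 0.00068). The difference in Hif1a was 0.08 ± 0.11 (95% interval -0.15 to 0.31, adjusted p = 0.815), and Vegfa was higher in all 3 arrays without being called (0.42 ± 0.18, adjusted p = 0.249). Of the 8 genes 5 were called, each lower, where 4.67% of all genes were called (1.51% higher, 3.17% lower). Leaving out the second low-arginine array or the second or the third full-medium array left 3 called (Egln3, Bnip3 and Pdk1); the call of Ndrg1 ended without any 1 of the 6 arrays (adjusted p from 0.0643 to 0.191).

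In low leucine, Egln3 fell by 1.47 ± 0.33 (2.78-fold, adjusted p = 0.0133) and Pdk1 fell by 0.81 ± 0.18 (1.76-fold, adjusted p = 0.00958), so that 2 of 8 genes were called both lower, where 2.72% of all genes were (1.15% higher, 1.56% lower). Both calls ended without the second low-leucine array (Egln3 -1.16 with adjusted p = 0.124, Pdk1 -0.70 with adjusted p = 0.0822) or without the third full-medium array (adjusted p = 0.0664 and 0.0581); that of Egln3 also ended without the second full-medium array (adjusted p = 0.0621). Bnip3 was lower in every low-leucine array, at -0.73 ± 0.25 with adjusted p = 0.153, and was called with only these groups in the fit (adjusted p = 0.0435). Ndrg1 differed by -0.05 ± 0.23 (95% interval -0.53 to 0.43).

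In low lysine, Egln3 fell by 2.04 ± 0.33 (4.11-fold, adjusted p = 0.000608), Bnip3 fell by 1.54 ± 0.25 (2.91-fold, adjusted p = 0.000582) and Pdk1 fell by 0.97 ± 0.18 (1.96-fold, adjusted p = 0.00141). Ndrg1 fell by 0.90 ± 0.23, Egln1 fell by 0.63 ± 0.17 and P4ha1 fell by 0.50 ± 0.15, with adjusted p = 0.0172, 0.0256 and 0.038. Thus 6 of 8 genes were called, each lower, where 8.73% of all genes were called (2.49% higher, 6.24% lower). Under quantile normalization, and without the first or second low-lysine array or the second full-medium array, 3 were called (Egln3, Bnip3 and Pdk1). Egln1 and P4ha1 also lost their calls without the first or the third full-medium array (adjusted p from 0.0515 to 0.113). Both calls ended as well with only these groups in the fit (adjusted p = 0.0604 and 0.103). Hif1a differed by 0.05 ± 0.11 and Vegfa by 0.22 ± 0.18. The 3 low media and the pretreated group are all compared with the same 3 full-medium arrays, so these comparisons are not independent of each other. The submitters' sample numbers put the full-medium arrays in another run than the low-medium arrays. The runs are a grouping made here from those numbers, with 6 consecutive numbers to a run where runs serve as a block. The labels do not say what such a grouping stands for, and here run and medium cannot be told apart. Under quantile normalization the share of all called genes that were higher moved from 32.2% to 48.8% for low arginine, from 42.5% to 52.6% for low leucine and from 28.6% to 45.2% for low lysine against full medium, and centring gave 18.4% for low lysine.

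**Figure D2:**
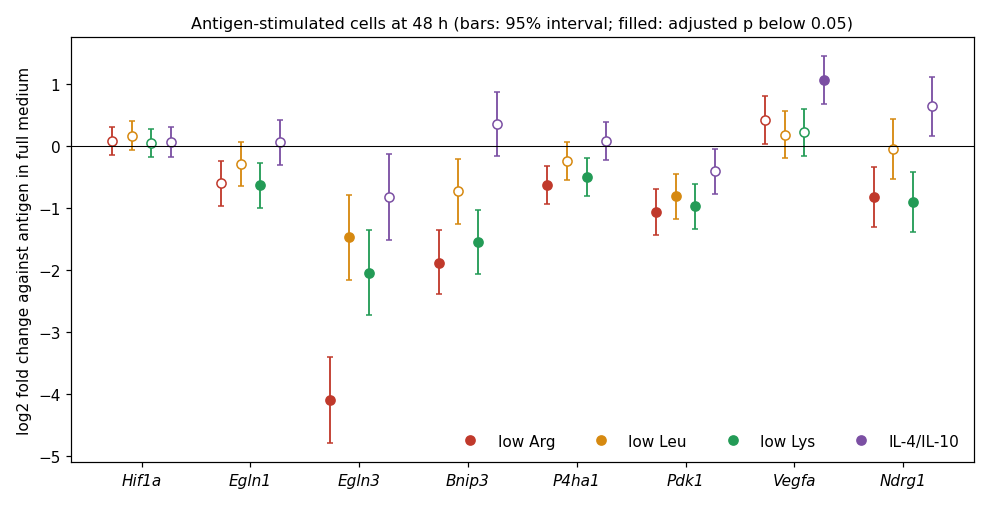
Log2 fold change (y axis) of the 8 genes against OVA in full medium at 48 h for low arginine, low leucine, low lysine and IL-4/IL-10 pretreatment, with OVA in all groups; bars are 95% intervals and filled points have an adjusted p below 0.05. Egln3 in low arginine reaches -4.10, Hif1a stays within 0.05 to 0.16, and Vegfa is called after pretreatment only.

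Set against each other with OVA present, low arginine had less Egln3 than low leucine (-2.63 ± 0.33, 6.17-fold, adjusted p = 0.000352) and than low lysine (-2.06 ± 0.33, 4.17-fold, adjusted p = 0.00123). Bnip3 was lower in low arginine than in low leucine (-1.15 ± 0.25, adjusted p = 0.0263). That made 2 of 8 genes called between arginine and leucine, where 0.712% of all genes were called (0.234% higher, 0.478% lower in arginine). It made 1 of 8 between arginine and lysine, against 3.22% of all genes (2.65% higher, 0.577% lower in arginine). Under quantile normalization the share of called genes that were higher in arginine moved from 32.9% to 48.0% against leucine and from 82.1% to 64.1% against lysine. The call of Bnip3 ended without any 1 of the low-arginine arrays or without the first or the third low-leucine array (adjusted p from 0.0599 to 0.179), and with runs of the submitters' sample numbers as a block (adjusted p = 0.0667). Ndrg1 was called lower in arginine than in leucine with only these groups in the fit (-0.78, adjusted p = 0.00534) and with the mean of its probe sets (-0.77, adjusted p = 0.0435). Between leucine and lysine limma called none of the 8, against 1.88% of all genes (1.59% higher, 0.289% lower in leucine); 2 of the 8 had an unadjusted p below 0.05. Ndrg1 was nearest, higher in leucine by 0.85 ± 0.23 (adjusted p = 0.0578) in every array. Without the third low-lysine array Ndrg1 (1.09), Bnip3 (1.17) and Egln3 (1.04) were all called higher in leucine, and Bnip3 (1.1) was also called without the second low-leucine array.

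At 48 h, pretreatment of the macrophages raised Vegfa and no other of the 8 genes past the threshold. It rose by 1.06 ± 0.18 (2.09-fold, adjusted p = 0.000654), with all pretreated arrays above all others with OVA. It was the 1 of 8 genes called, where 8.64% of all genes were called (2.71% higher, 5.93% lower). Ndrg1 was higher in each pretreated array (0.64 ± 0.23, adjusted p = 0.0927, but 0.0281 with only these groups in the fit and 0.025 under quantile normalization), and Bnip3 likewise (0.35 ± 0.25, adjusted p = 0.497). Egln3 and Pdk1 had lower means (-0.82 ± 0.33 and -0.40 ± 0.18, adjusted p = 0.147 and 0.188), with the third pretreated array at 10.05 and 7.87, inside the full-medium range. Without that array Egln3 was called at -1.17 (adjusted p = 0.0311) and Pdk1 at -0.62 (adjusted p = 0.0242), which made 3 called. Hif1a, Egln1 and P4ha1 differed by 0.07, 0.06 and 0.08. Of the 23 macrophage markers 9 were called higher after pretreatment and their mean level did not overlap between the groups; their part in the result was not tested. Of all genes called for this comparison 31.3% were higher as deposited and 49.2% under quantile normalization.

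At 72 h, OVA raised Hif1a, both prolyl hydroxylase genes, Pdk1, Ndrg1 and Ankrd37. Hif1a read 10.46, 10.61 and 10.47 without OVA and 11.63, 11.31 and 11.42 with it, and rose by 0.94 ± 0.10 (1.92-fold, adjusted p = 1.69e-05). Egln3 read 7.70, 7.77 and 7.92 without OVA and 10.07, 10.28 and 9.89 with it, a rise of 2.28 ± 0.43 (4.87-fold, adjusted p = 0.00122). Ankrd37, an ankyrin repeat protein, read 5.44, 5.99 and 5.04 without OVA and 8.10, 7.80 and 7.5 with it. It rose by 2.31 ± 0.42 (4.96-fold, adjusted p = 0.001). For these 3 genes every array with OVA lies above every array without, as for 25.6% of all genes. Ndrg1 read 7.12, 7.81 and 7.73 without OVA and 8.90, 8.36 and 8.65 with it, and rose by 1.08 ± 0.21 (adjusted p = 0.00141). Pdk1 read 6.77, 7.07 and 6.79 without OVA and 7.82, 8.08 and 7.56 with it, and rose by 0.94 ± 0.21 (adjusted p = 0.00444). Its other probe sets differed by 0.17 and 0.82. Egln1 rose by 0.58 ± 0.16 (adjusted p = 0.0129), a call that ended without the first array of either group (adjusted p = 0.0603 and 0.0519).

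Bnip3l, a mitophagy receptor related to Bnip3, moved the other way at 72 h. It read 10.97, 11.03 and 11.04 without OVA and 10.59, 10.47 and 10.33 with it, with a difference of -0.55 ± 0.09 (adjusted p = 0.000655) in the values as deposited, but of -0.04 with the arrays centred on their medians (adjusted p = 0.801). Bnip3 overlapped between the groups, at 9.57, 9.86 and 9.66 without OVA and 9.84, 10.36 and 9.49 with it (0.20 ± 0.28, adjusted p = 0.636); after centring its difference was 0.71 (adjusted p = 0.0422). Vegfa read 8.87, 8.13 and 7.56 without OVA and 7.79, 7.16 and 6.93 with it (-0.89 ± 0.36, adjusted p = 0.0766), and its other probe set differed by 0.05. Vegfa was called lower under quantile normalization (adjusted p = 0.0454), without the first OVA array (adjusted p = 0.0449) and without the third array lacking OVA (adjusted p = 0.0276). It was also called with replicate number as a block (-0.89 ± 0.15, adjusted p = 0.001), though the numbers were not shown to pair these arrays. In each 72 h group its values fell in the order of the replicate numbers. Of the 9 genes 7 were called, 6 higher and 1 lower, where 38.2% of all 17097 genes were called (20.7% higher, 17.4% lower). Centring the arrays on their medians adds 0.51 to every log2 difference of this comparison, and of all calls 54.3% were higher as deposited and 86.0% after centring; the 6 rises above were called under both. At 48 h centring adds 0.14 to 0.18 to the antigen effects. The 18 mesothelial and stromal markers were all called lower with OVA at 72 h, with a median difference of -5.52. Of 23 macrophage markers 15 were called lower. Of 13 T cell markers 10 were called higher and 0 lower, with a median difference of 0.89. The part of these markers in the result was not tested.

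Pretreatment of the macrophages at 72 h went with higher Hif1a and Vegfa and lower Egln3 and Pdk1. Hif1a read 11.85, 11.81 and 11.92 after pretreatment, above all arrays with OVA alone, and rose by 0.41 ± 0.10 (adjusted p = 0.0242). Vegfa read 9.49, 8.76 and 8.40, also above all arrays with OVA alone, and rose by 1.59 ± 0.36 (3.01-fold, adjusted p = 0.0212). Egln3 read 7.84, 9.58 and 7.42, all below OVA alone, and fell by 1.80 ± 0.43 (3.48-fold, adjusted p = 0.0239). Pdk1 read 6.44, 7.07 and 6.68 and fell by 1.09 ± 0.21 (2.13-fold, adjusted p = 0.0117), overlapping the arrays without OVA. Of the 9 genes 4 were called, 2 in each direction, where 9.69% of all genes were called (3.78% higher, 5.91% lower). Ankrd37 read 7.02, 8.56 and 6.81 (-0.34 ± 0.42, adjusted p = 0.711), and the second pretreated array was the highest of its group for Egln3, Bnip3, Pdk1, Ndrg1 and Ankrd37. Egln1, Bnip3 and Ndrg1 differed by 0.12, -0.40 and 0.13, none called. Bnip3l read 10.60, 10.70 and 10.70, just above every array with OVA alone (0.20 ± 0.09, adjusted p = 0.221). Its other probe sets differed by 0.71 and 0.60, and the mean of all its probe sets was called higher (0.51, adjusted p = 0.0267).

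These 4 calls rest on few arrays. Without the first or the third pretreated array, or without the second or the third array with OVA alone, 1 call was left: Pdk1 in each case but that of the third pretreated array, where Vegfa was left. Egln3 lost its call without the first array with OVA alone as well (adjusted p = 0.0638). With only these 2 groups in the fit, Pdk1 and Vegfa were called and Hif1a and Egln3 were not (adjusted p = 0.0575 and 0.0711). Averaging all probe sets turned the Hif1a difference to -0.07 (adjusted p = 0.872), since its other probe set, with a mean level of 4.0, differed by -0.56, and it gave Vegfa 1.21 (adjusted p = 0.054). In this comparison all other probe sets of Egln3, Pdk1 and Vegfa had the same direction as the value used. The mesothelial and stromal mean was highest in the first pretreated array (5.69), which also had the highest Vegfa of the group; its part in the result was not tested.

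**Figure D3:**
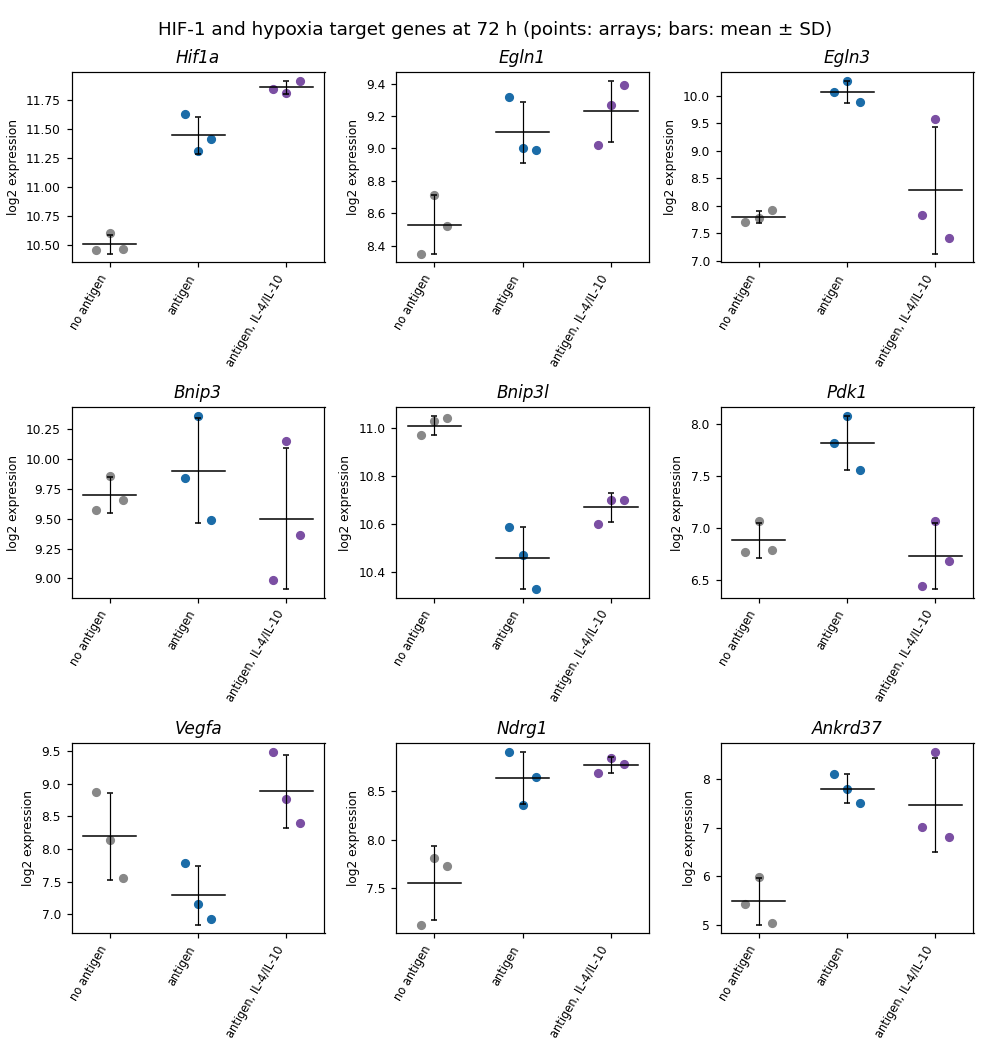
Log2 expression (y axis) of the 9 genes measured at 72 h without OVA, with OVA, and with OVA and IL-4/IL-10 pretreated macrophages (x axis), with 1 point per array, the mean as a line and the SD as the bar; y axes differ between panels. Hif1a is highest after pretreatment (11.81 to 11.92), whereas Pdk1 there (6.44 to 7.07) overlaps the arrays without OVA (6.77 to 7.07).

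Some of the members varied together from array to array within groups at 48 h, and others did not. After subtracting each group's mean, Pearson's r over the 23 arrays was 0.78 for Egln3 with Bnip3, 0.77 for Egln3 with Pdk1, 0.68 for Egln1 with Ndrg1 and 0.62 for Bnip3 with Pdk1. It was -0.21 for Vegfa with Egln1, -0.08 for Vegfa with Ndrg1, -0.03 for Hif1a with Egln1, 0.37 for Hif1a with Egln3 and 0.15 for Hif1a with Vegfa. Without subtracting group means, Hif1a with Vegfa gave 0.93 and Egln3 with Bnip3 gave 0.89. These are descriptions of 28 pairs over arrays that share groups and processing, with no test.

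**Figure D4:**
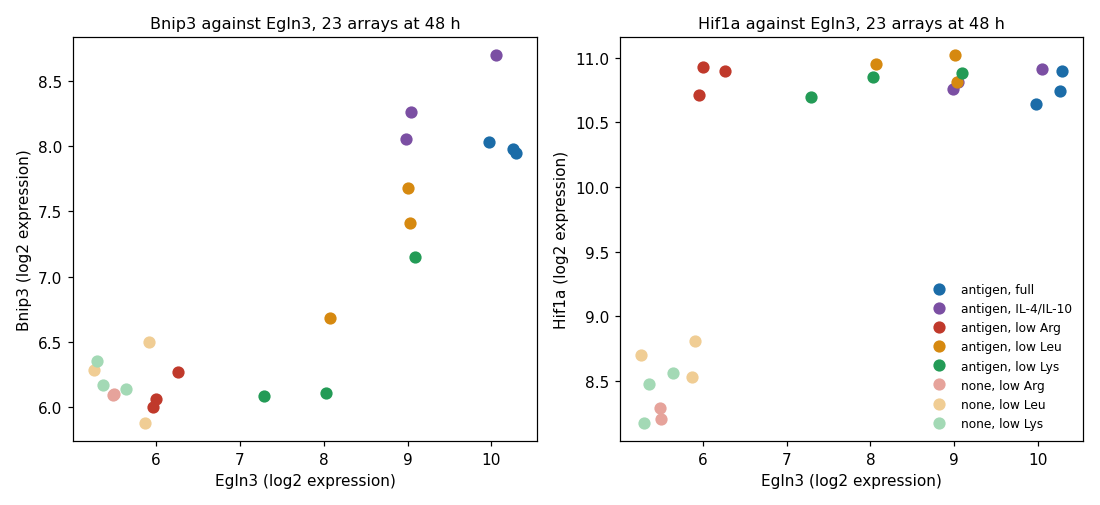
Log2 expression of Bnip3 (left, y axis) and Hif1a (right, y axis) against Egln3 (x axis) on the 23 arrays at 48 h, with 1 point per array coloured by group. Bnip3 and Egln3 both have their lowest mean in low arginine among the OVA groups, Bnip3 is highest after pretreatment and Egln3 in full medium, while Hif1a sits between 10.64 and 11.02 for all arrays with OVA whatever their Egln3 level.

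Among 11082 genes with a mean above the median at 48 h, the profiles nearest to each member over the 23 arrays were listed by Pearson's r. Group means were not subtracted here, so genes that share a split between arrays with and without OVA can have a high r. Closest to Hif1a were Bhlhe40, a transcriptional repressor, Gars, the glycyl-tRNA synthetase, and Il2ra, the IL-2 receptor alpha chain (r = 0.99 each). Egln3 ran closest to Ak4, a mitochondrial adenylate kinase (0.97), then Slc25a1, the mitochondrial citrate carrier, and Slc2a1, the glucose transporter GLUT1 (0.95 each). For Bnip3 the list was Ier3 (0.92), the glucose transporter gene Slc2a3 (0.91) and Ak4 (0.91). Egln1 was nearest to Bsg, the chaperone of lactate transporters, Slc2a1 and Ndufv3, a complex I subunit (0.96 each). Ndrg1 had Plod2, a collagen lysyl hydroxylase, Csnk1e, a casein kinase, and Bsg (0.94 each), and P4ha1 had Heg1 (0.95), Setd5 and Sik1 (0.94 each). Vegfa had the non-coding Snhg15 (0.97), Eif4ebp1, the translation repressor 4E-BP1, and Tspan3 (0.96 each). Pdk1 had lower values, with Snord118 (0.89), the malic enzyme gene Me2 (0.88) and Slco3a1 (0.87).

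Other genes of the pathway were followed in lists drawn up with earlier results known: 21 regulators of HIF, 40 further HIF targets and 18 genes of glycolysis and glucose or lactate transport, many of which HIF-1 is known to induce. In low arginine against full medium, 12 of 15 measured glycolysis genes were called lower (list median -0.89, all-gene median 0.01), among them Slc2a3 (-1.79 ± 0.32), Hk2, which phosphorylates glucose (-1.29 ± 0.20), and the lactate exporter gene Slc16a3 (-1.25 ± 0.31). Of 38 further HIF targets 7 were called lower (median -0.21), including Ak4 (-2.0 ± 0.28), the glycogen branching enzyme gene Gbe1 (-1.32 ± 0.24) and Plod2 (-1.10 ± 0.29). In this comparison 1.51% of all genes were called higher and 3.17% lower. The regulators had 1 gene called in each direction of 18: the HIF coactivator gene Crebbp was higher (0.64 ± 0.13), and Cited2, which competes with HIF for that coactivator, was lower (-0.91 ± 0.18). Arnt, Vhl and Hif1an, the asparaginyl hydroxylase of HIF, differed by 0.06, -0.18 and 0.16, none called.

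Low lysine gave 10 of 15 glycolysis genes lower (median -0.68), with Slc2a3 at -1.71 ± 0.32, Slc16a3 at -1.28 ± 0.31 and the phosphofructokinase gene Pfkl at -1.06 ± 0.18. Among the further targets 6 were lower and 1 higher: Ak4 (-1.43 ± 0.28), Plod2 (-1.26 ± 0.29) and Ccng2, a cyclin (-1.05 ± 0.20), were the lowest, and Bhlhe40 was the higher one (0.45 ± 0.14). Cited2 was the 1 regulator called (-0.65 ± 0.18). In low lysine 2.49% of all genes were called higher and 6.24% lower. In low leucine 2 of 15 glycolysis genes were called lower, Aldoc (-1.03 ± 0.22) and Pfkl (-0.82 ± 0.18), and 2 of 38 further targets, Gbe1 (-1.26 ± 0.24) and the transferrin receptor gene Tfrc (-0.67 ± 0.18). There, 1.15% of all genes were called higher and 1.56% lower. Between the low media, the naming rule gave Hk2, lower in arginine than in leucine (-0.86 ± 0.20), and Car12 (-0.72 ± 0.18) and the regulator Ubqln1 (-0.44 ± 0.12), lower in arginine than in lysine. Ccng2 was lower in lysine than in arginine (1.09 ± 0.20, arginine minus lysine) and than in leucine (0.86 ± 0.20, leucine minus lysine).

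**Figure D5:**
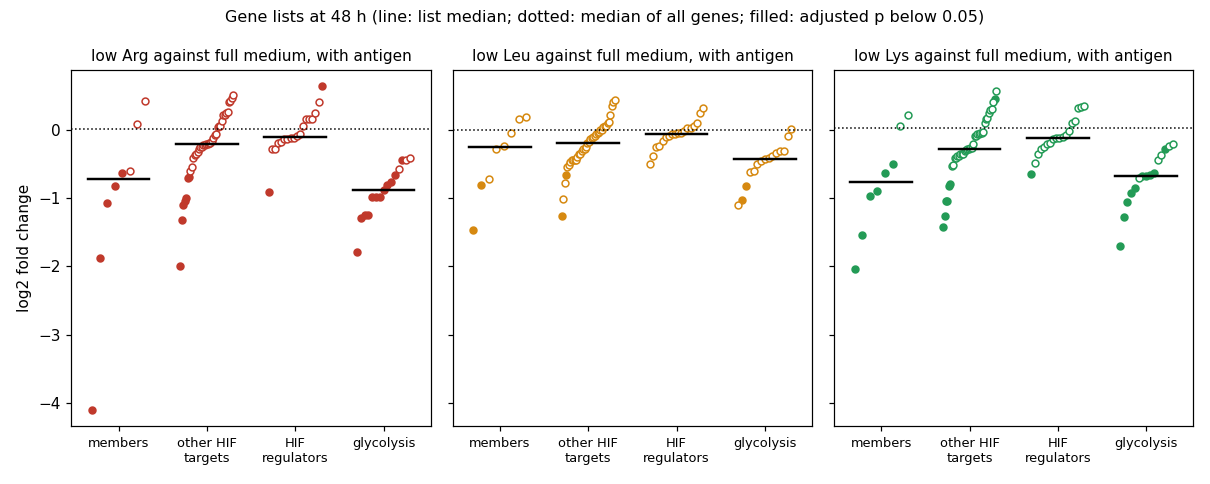
Log2 fold change (y axis) against full medium with OVA at 48 h for every measured gene of 4 lists (x axis), in low arginine, low leucine and low lysine; filled points have an adjusted p below 0.05, black lines are list medians and the dotted line is the median of all genes. The glycolysis medians are -0.89, -0.43 and -0.68, and those of the further HIF targets -0.21, -0.19 and -0.28.

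With OVA in the low media, Bhlhe40 rose by 3.64 to 4.15 and Tfrc by 2.42 to 3.03, and 8, 12 and 11 of 15 glycolysis genes were called higher in low arginine, leucine and lysine. Of all genes 17.2%, 21.8% and 18.4% were called higher in the same order. Fam162a, a mitochondrial protein gene, rose by 2.11 to 2.52. Among regulators, Eloc and Cul2, subunits of the VHL ubiquitin ligase, rose by 2.33 to 2.86 and by 1.5 to 1.78, and Epas1, which encodes HIF-2 alpha, was lower (-0.87, -1.01 and -0.68). At 72 h OVA raised 11 of 15 glycolysis genes, led by Slc2a3 (3.01 ± 0.35) and Pfkp (2.95 ± 0.16). In this comparison 20.7% of all genes were called higher and 17.4% lower. Among 37 further targets 14 were higher, led by Tfrc (4.18 ± 0.22), Bhlhe40 (2.95 ± 0.27) and Ddit4, an mTORC1 inhibitor gene (2.31 ± 0.40). A further 6 were lower, a share near that of all genes called lower. First among them were the lysyl oxidase gene Lox (-4.90 ± 0.67), the adrenomedullin gene Adm (-4.37 ± 0.66) and Plod1 (-2.78 ± 0.44). These fell alongside the mesothelial and stromal markers given above. Epas1 (-2.12 ± 0.36) and Arnt2 (-2.43 ± 0.21) were lower as well.

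After pretreatment at 48 h, 8 of 38 further targets were called higher, led by the chemokine receptor gene Cxcr4 (1.09 ± 0.19), the glycogen synthase gene Gys1 (0.90 ± 0.20) and the heme oxygenase gene Hmox1 (0.75 ± 0.21), and Tfrc (-0.86 ± 0.18) and Angptl4 (-0.50 ± 0.15) were lower. Of all genes 2.71% were called higher and 5.93% lower at 48 h. At 72 h Stc2 (1.22 ± 0.31) and Gys1 (1.00 ± 0.17) were higher. The lower ones at 72 h were Tfrc (-1.17 ± 0.22), the carbonic anhydrase gene Car12 (-0.97 ± 0.24) and Mif (-0.50 ± 0.06). In glycolysis Aldoc (-2.88 ± 0.31), Pfkp (-0.73 ± 0.16) and Pgk1 (-0.44 ± 0.11) were the 3 of 15 called at 72 h, each lower. Pretreatment at 72 h had 3.78% of all genes called higher and 5.91% lower. Of the 101 differences of list genes that the rule for naming selects, 31 lost their call when 1 array was left out, and none changed sign in any alternative. Among those given here, the calls that ended under at least 1 alternative are those of Plod2 and Slc16a3 in low arginine, of Ak4, Bhlhe40, Cited2, Plod2 and Slc16a3 in low lysine, of Aldoc, Pfkl and Tfrc in low leucine, and of Hk2, Car12, Ubqln1 and Ccng2 between the low media. After pretreatment they are those of Angptl4 and Hmox1 at 48 h and of Car12, Mif, Pfkp, Pgk1, Stc2 and Tfrc at 72 h.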

How the data were processed

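Expression was measured on 32 Affymetrix arrays, MoGene-2_0-st at 48 h and HT_MG-430_PM at 72 h. Each deposited value is a probe set's log2 expression from RMA, which the submitters' processing notes place in Affymetrix Expression Console 1.1; which arrays were normalized together is not given in the sources used here. The values were kept as deposited. Probe sets were named from the platform annotation, those naming several genes were left out, and for a gene with several the one of highest mean level was used. No pair of arrays was identical, and the number of arrays limits the precision.

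Each array type was fitted separately with limma 3.58.1 in R 4.3.3 (lmFit and eBayes with an intensity trend, all groups in 1 fit), p-values were adjusted by Benjamini-Hochberg over all genes, and 12 comparisons and 1 interaction were made. The scripts were tested on simulated data. The genes and all lists were chosen with earlier results of these data known. Named genes are all members and, from the HIF regulator, HIF target and glycolysis lists, up to 3 called genes with the largest rise and fall in each comparison; Arnt, Vhl and Hif1an were named after their values were seen. Alternatives were median centring, quantile normalization, the mean of a gene's probe sets, only genes above the median level and no trend. Others were only the 2 groups compared, replicate number as a block, runs of consecutive sample numbers (a grouping made here) as a block, and leaving out each array. Same-numbered arrays deviated together, by correlations over 5000 genes, in pretreatment at 72 h (0.16 to 0.26) and in low arginine against low leucine with OVA (0.29 to 0.39). There the numbers were taken to pair the arrays, and the block left the counts of called members at 4 and 2. The SEs and adjusted p-values given for these comparisons, also those with an array left out, come from fits without that block.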

Additional observations from a re-analysis of the deposited data

How the results depend on the processing

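Over all alternatives, 1212 of the members' results stayed on their side of the threshold, 72 lost a call, 25 gained one, 4 changed sign without a call by more than the spread between arrays (all of Pdk1 with antigen in low media), and 1 reversed: Hif1a after pretreatment at 72 h was -0.07 with the mean of its probe sets. Counts of called members when 1 array was left out ran from 6 to 8 for antigen at 72 h, 1 to 4 for pretreatment at 72 h, 1 to 3 for pretreatment at 48 h, 3 to 4 for low arginine, 0 to 2 for low leucine and 3 to 6 for low lysine against full medium. They ran from 3 to 5, 7 to 7 and 5 to 6 for antigen in low arginine, leucine and lysine, from 1 to 2 for arginine against leucine, 1 to 1 for arginine against lysine and 0 to 3 for leucine against lysine, and from 0 to 1 for the interaction. With only the 2 groups compared in the fit, 2 members were called for pretreatment at 72 h and 2 at 48 h. Quantile normalization called 2 for pretreatment at 48 h, 3 for low lysine against full medium, 2 for antigen in low arginine, 1 for arginine against leucine and 1 for the interaction; the mean of probe sets called 2 for pretreatment at 48 h. Only genes above the median level called 1 for leucine against lysine and 1 for the interaction, and runs of sample numbers as a block called 1 for arginine against leucine. With replicate number as a block, where the numbers were not shown to pair the arrays, 1 was called for leucine against lysine (Ndrg1, adjusted p = 0.0299) and 1 for the interaction (Egln3, adjusted p = 0.0126). The block also called Vegfa lower for antigen at 72 h (adjusted p = 0.001) and Egln1 lower in low arginine (adjusted p = 0.0288), and it ended no member's call. The causes of these changes were not tested, apart from the smaller number of arrays or genes that a setting itself brings. The number of all genes called also moved by over 1.5 times. With only the 2 groups compared it went from 1656 to 1009 for pretreatment at 72 h, from 1036 to 2472, 603 to 1654 and 1936 to 968 for low arginine, leucine and lysine against full medium, and from 158 to 879, 715 to 139 and 416 to 50 for arginine against leucine, arginine against lysine and leucine against lysine. Quantile normalization took low lysine from 1936 to 1234, leucine against lysine from 416 to 190 (with the share higher in leucine going from 84.6% to 64.7%) and the interaction from 33 to 87. Centring took antigen at 72 h from 6527 to 12819, arginine against leucine from 158 to 95 and the interaction from 33 to 21. Only genes above the median level gave 653 for leucine against lysine and 73 for the interaction, and the replicate block gave 638 for leucine against lysine. Leaving out 1 array gave 495 to 2225 for pretreatment at 72 h (495 without the third pretreated array, 538 without the third array with OVA alone) and 1148 to 2111 from 1916 at 48 h. It gave 577 to 710 for low arginine, 339 to 401 for low leucine and 903 to 3183 for low lysine against full medium, and 48 to 78, 329 to 1021 and 84 to 1414 for arginine against leucine, arginine against lysine and leucine against lysine. Antigen in low arginine gave 3857 to 5543 from 6517, lowest without the first array lacking OVA, and the interaction 8 to 218. The counts of 3183, 1414 and 218 are those without the third low-lysine array with OVA. The shares of all genes beside the members' counts rest on these numbers.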
